A study of Mus musculus with 36 samples.

Results

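The 8 genes described here carry out or control the uptake of lipoprotein cholesterol into liver cells, its release from lysosomes and its storage as ester. They were chosen by name for this role, with earlier results of these data known. Mylip, Vldlr, Lrp1, Scarb1, Npc1, Npc2, Soat1 and Soat2 are 8 of the 49315 genes listed in the deposited table, and each has 1 row. All 8 passed the filter on low values. The samples were livers of male mice aged 11 to 12 weeks whose LXRalpha, a nuclear receptor that binds oxidised sterols, was changed with CRISPR at residue 441 from tryptophan (W) to phenylalanine (F). Mice with W on both alleles (W/W, the homozygous controls), 1 allele of each kind (W/F) or F on both alleles (F/F) ate normal chow or a high-fat, high-cholesterol diet that promotes steatohepatitis (the MASH diet) for 4 weeks. In the final 2 weeks the mice on the MASH diet received daily oral doses of vehicle or of T0901317, an LXR agonist, at 10 mg per kg. Each of the 9 groups held 4 libraries of polyA RNA, 36 in all, each taken here as 1 mouse. The mutation is carried by every cell of the body, and no strain, litter or founder line is named in the sources used here. A point mutation leaves no trace in TPM, so the genotype labels could not be checked. The chow mice were a separate cohort with no dosing recorded, so that diet, cohort and oral dosing cannot be told apart. Below, "vehicle" and "T0901317" stand for the MASH diet with that treatment.

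Liver cells bind circulating lipoproteins through the LDL receptor and its relatives, carry them to lysosomes and free the cholesterol there. Mylip (also called Idol) is a ubiquitin ligase that marks the LDL receptor and Vldlr for degradation, and its gene is a known LXR target. Vldlr binds triglyceride-rich particles, Lrp1 is a large endocytic receptor for remnants and many other ligands, and Scarb1 (SR-BI) takes cholesteryl ester from HDL without engulfing the particle. Npc2 hands cholesterol to the membrane protein Npc1, which lets it leave the lysosome. Soat1 and Soat2 (ACAT1 and ACAT2) esterify cholesterol for storage, Soat2 mainly in hepatocytes and enterocytes and Soat1 in most other cells, macrophages among them.

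Promoter sequences are shown for Mylip, Npc2 and Soat1, the 3 genes called higher in both mutants against W/W on vehicle on both scales. Such calls were common: 61.6% of all genes were higher in W/F and 69.3% in F/F as deposited, and 27.6% and 31% after rescaling. The share of all genes that met all 4 conditions was not counted. The sequences run from 250 bases before to 50 bases after the gene's start, 5′ to 3′ on the gene's strand. They come from RefSeq on GRCm38.p6, from which windows of 5 of the 8 genes were used here. No window was searched for the rest of the 8. Capitals mark matches on either strand to 3 common promoter motifs, found by letters alone. The CCAAT box was searched as its own name spells it. The GC box was searched as GGGCGG. For the TATA box the search used TATAAA.
Mylip, chr13:45389492-45389791, plus strand: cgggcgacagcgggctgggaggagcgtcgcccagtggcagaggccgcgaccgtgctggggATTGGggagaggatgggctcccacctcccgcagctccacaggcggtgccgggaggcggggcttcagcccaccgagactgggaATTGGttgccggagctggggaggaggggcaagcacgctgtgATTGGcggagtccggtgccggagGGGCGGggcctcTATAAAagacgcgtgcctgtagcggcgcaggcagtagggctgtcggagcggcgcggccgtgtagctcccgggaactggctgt
Npc2, chr12:84773063-84773362, minus strand: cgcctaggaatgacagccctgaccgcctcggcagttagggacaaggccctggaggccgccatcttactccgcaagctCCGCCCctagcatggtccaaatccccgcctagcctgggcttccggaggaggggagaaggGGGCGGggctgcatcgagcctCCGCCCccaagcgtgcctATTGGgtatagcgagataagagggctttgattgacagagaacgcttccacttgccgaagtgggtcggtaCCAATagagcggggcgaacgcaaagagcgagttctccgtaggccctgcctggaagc
Soat1, chr1:156474279-156474578, minus strand: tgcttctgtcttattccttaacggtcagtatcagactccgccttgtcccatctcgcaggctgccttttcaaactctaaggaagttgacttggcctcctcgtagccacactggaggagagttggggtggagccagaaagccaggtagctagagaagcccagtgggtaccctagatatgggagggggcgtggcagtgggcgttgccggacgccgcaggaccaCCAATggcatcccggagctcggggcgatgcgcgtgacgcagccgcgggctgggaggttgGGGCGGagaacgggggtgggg
The Mylip window held 3 CCAAT matches, all on the opposite strand, 1 GGGCGG and 1 TATAAA. The Npc2 window held 2 CCAAT and 3 GGGCGG matches, and the Soat1 window 1 of each. Of 32851 mouse promoter windows of this length, 37.41% held CCAAT, 35.66% GGGCGG and 13.62% TATAAA. Other motifs were searched on both strands in the windows of Mylip, Vldlr (2 starts), Lrp1, Npc2 and Soat1. AGGTCA, the half-site that many nuclear receptors bind, was in none of them and in 16.26% of all promoters. The E-box CACGTG was in none and in 7.15% of all. A missing match says only that these letters are not in this window.

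The values are TPM (transcripts per 1000000 transcripts), which are corrected for gene length, so that levels can be set side by side between genes. Library depth, recovered from the steps of the low values, was 18.1 to 35.7 M reads (M, 1000000). Albumin (Alb), the main protein that hepatocytes secrete, stood at 18000.1 to 69067.9 TPM in every library. TPM share a fixed total, and the median of all 16638 genes tested differed between groups, by 0.70 on the log2 scale in F/F against W/W on vehicle and by 0.52 in W/F against W/W on vehicle. Each comparison was therefore also made after rescaling the libraries to a common median ratio, which brought these medians to 0.03 and 0.02. A call is an adjusted p under 0.05 in limma with Benjamini-Hochberg adjustment over all genes tested. Differences are on the log2(TPM + 1) scale, which understates changes of genes near or under 1 TPM, such as Vldlr and, in W/W, Soat1. In whole liver, fewer cells of a type and less RNA per cell cannot be told apart.

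As deposited, Soat1, Mylip and Npc2 varied most over the 9 groups, and Soat2, Lrp1, Scarb1 and Npc1 varied least, while after rescaling Vldlr varied more than Npc2. The highest group mean of Soat1 was 28.6 times the lowest as deposited and 17.5 times after rescaling. The same ratio was 6.17 and 4.52 for Mylip, 5.03 and 3.08 for Npc2, and 3.83 and 3.48 for Vldlr. It was 1.64 and 1.67 for Lrp1, 1.77 and 1.81 for Scarb1, 1.65 and 1.39 for Npc1, and 1.68 and 2.19 for Soat2. Soat1 and Npc2 were highest in F/F livers on vehicle and second highest in W/F livers on vehicle. Mylip instead was highest in F/F livers on T0901317.

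**Figure D1:**
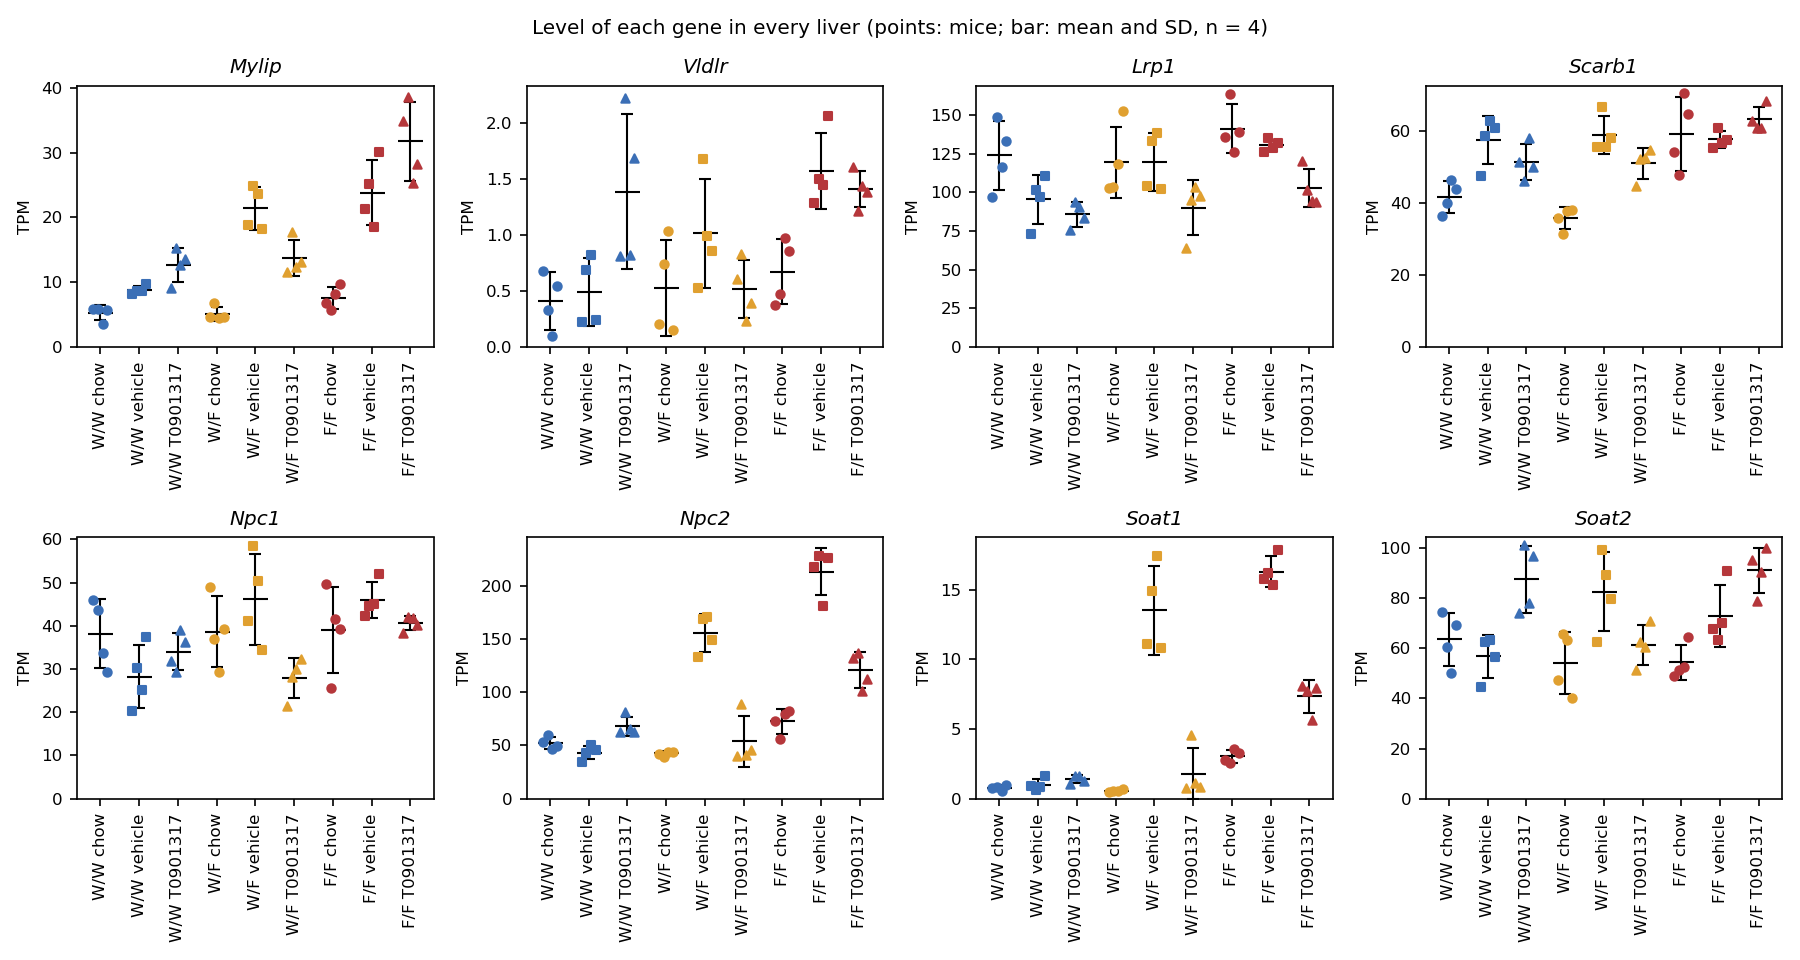
TPM of each of the 8 genes in 36 livers, 1 panel per gene with its own linear axis starting at 0. Points are mice, coloured by genotype, and bars are mean and SD (n = 4). Soat1 and Npc2 peak in W/F and F/F livers on vehicle, Mylip is highest in F/F livers on T0901317, and the points of most neighbouring groups overlap for Lrp1, Scarb1, Npc1 and Soat2.

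Mylip (ENSMUSG00000038175, chr13:45389742-45412022, plus strand, GRCm38), the ligase that removes lipoprotein receptors, read in W/W livers 5.93, 5.94, 3.53 and 5.74 TPM with chow, 8.22, 8.63, 8.62 and 9.69 with vehicle and 9.08, 15.3, 12.7 and 13.7 with T0901317. The W/F livers read 4.70, 6.78, 4.50 and 4.61 TPM with chow, 18.9, 24.9, 23.6 and 18.2 with vehicle and 11.6, 17.7, 12.3 and 13.2 with T0901317. The F/F livers read 6.79, 5.79, 8.17 and 9.74 TPM with chow, 21.3, 25.1, 18.6 and 30.1 with vehicle and 34.9, 38.5, 25.3 and 28.3 with T0901317. All 4 W/W livers on vehicle were below every W/F and F/F liver on vehicle, and all 4 F/F livers on T0901317 were above every W/W and W/F liver on T0901317. The F/F groups on vehicle and on T0901317 overlapped. Group means ran from 5.15 ± 1.09 TPM (SD, n = 4) in W/F livers on chow to 31.7 ± 6.06 TPM in F/F livers on T0901317, and 7 of the 8 pairs of neighbouring groups in this order overlapped. The exception lay between W/F on T0901317 at 13.7 ± 2.76 TPM and W/F on vehicle at 21.4 ± 3.33 TPM, a gap that was gone after rescaling, where these means were 16.5 ± 1.996 and 17.01 ± 1.70 rescaled TPM.

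Vldlr (ENSMUSG00000024924, chr19:27216484-27254231, plus strand) was the lowest of the 4 genes of uptake and rested on 7 to 222 recovered reads per library. Its W/W means were 0.411 ± 0.256 TPM with chow, 0.493 ± 0.304 with vehicle and 1.39 ± 0.693 with T0901317. The W/F means were 0.532 ± 0.428 TPM with chow, 1.02 ± 0.485 with vehicle and 0.518 ± 0.258 with T0901317, and in F/F livers 0.670 ± 0.290 TPM with chow, 1.58 ± 0.339 with vehicle and 1.41 ± 0.162 with T0901317. All 8 pairs of neighbouring groups overlapped. The 4 values in W/W livers on T0901317 were 0.810, 2.22, 0.824 and 1.69 TPM and spread from 0.810 to 2.22 TPM, while those in W/W livers on vehicle were 0.225, 0.684, 0.820 and 0.244 TPM and overlapped them. On vehicle, the F/F values of 1.29, 1.50, 1.45 and 2.07 TPM lay above all W/W values.

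Lrp1 (ENSMUSG00000040249, chr10:127538161-127621148, minus strand), the remnant receptor, had the highest mean of the 8 genes in 5 of the 9 groups, with Npc2 above it in W/F and F/F livers on vehicle and F/F livers on T0901317, and Soat2 in W/W livers on T0901317. Its libraries ranged from 63.9 to 164 TPM. Means were 124 ± 22.4 TPM with chow, 95.5 ± 15.96 with vehicle and 85.9 ± 7.93 with T0901317 in W/W livers. They were 119 ± 23.2 TPM with chow, 119.6 ± 18.9 with vehicle and 90.02 ± 17.8 with T0901317 in W/F livers, and 141 ± 16.03 TPM with chow, 130.4 ± 3.65 with vehicle and 103 ± 12.3 with T0901317 in F/F livers. Neighbouring groups overlapped in all 8 pairs. The position of its groups depended on the scale: as deposited F/F livers on vehicle were second highest, and after rescaling they were second lowest at 90.5 ± 1.17 rescaled TPM.

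Scarb1 (ENSMUSG00000037936, chr5:125277087-125341094, minus strand), the HDL receptor, read in W/W livers 36.4, 40.01, 46.4 and 43.8 TPM with chow, 47.6, 58.7, 62.7 and 60.8 with vehicle and 51.3, 46.1, 58.1 and 50.04 with T0901317. W/F livers gave 35.7, 31.4, 37.7 and 38.1 TPM with chow, 55.4, 66.5, 55.5 and 57.9 with vehicle and 44.6, 52.05, 52.6 and 54.6 with T0901317. F/F livers gave 54.1, 47.7, 70.5 and 64.6 TPM with chow, 55.3, 60.8, 56.7 and 57.6 with vehicle and 62.8, 60.9, 60.7 and 68.3 with T0901317. The chow livers of W/W and W/F were lowest, and all 4 F/F livers on chow were above them. On vehicle the 3 genotypes had means of 57.5 ± 6.77, 58.8 ± 5.28 and 57.6 ± 2.33 TPM and overlapped. After rescaling these means became 72.4 ± 4.28, 46.98 ± 4.21 and 39.95 ± 1.04, the W/W group then being the highest of all 9 and the F/F group the lowest.

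Npc2 (ENSMUSG00000021242, chr12:84754562-84773152, minus strand), the soluble lysosomal carrier, read in W/W livers 53.3, 60.02, 46.7 and 49.7 TPM with chow, 34.7, 42.6, 50.004 and 45.7 with vehicle and 62.8, 81.6, 65.4 and 62.3 with T0901317. Its W/F values were 42.1, 39.3, 44.02 and 44.3 TPM with chow, 133, 169, 171 and 149 with vehicle and 40.04, 89.005, 40.8 and 45.3 with T0901317. Its F/F values were 73.1, 55.8, 79.1 and 82.8 TPM with chow, 218, 228, 182 and 226 with vehicle and 133, 137, 101 and 112 with T0901317. On vehicle the 3 genotypes were fully separated as deposited, W/W lowest and F/F highest. After rescaling W/F livers reached 131 and F/F livers began at 128 rescaled TPM, so these groups overlapped. In W/F livers on T0901317, 3 values were close to those of W/F livers on chow, and replicate 2 stood apart at 89.005 TPM. The highest mean was 214 ± 21.8 TPM in F/F on vehicle and the lowest 42.4 ± 2.29 TPM in W/F on chow, and 6 of the 8 neighbouring pairs overlapped.

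Npc1 (ENSMUSG00000024413, chr18:12189692-12236400, minus strand), the membrane partner of Npc2, changed far less in level. Its means were 38.2 ± 7.95 TPM with chow, 28.3 ± 7.26 with vehicle and 34.1 ± 4.34 with T0901317 in W/W livers. They were 38.7 ± 8.15 TPM with chow, 46.1 ± 10.6 with vehicle and 27.9 ± 4.67 with T0901317 in W/F livers and 39.1 ± 10.03 TPM with chow, 45.99 ± 4.20 with vehicle and 40.6 ± 1.63 with T0901317 in F/F livers. Neighbouring groups overlapped in 7 of 8 pairs. Npc1 shares 511 exon bases with Rmc1 and 90 with Gm15956 on the opposite strand, and since no source used here says whether reads were assigned by strand, reads in these bases cannot be told apart. They make up 4.51% and 0.795% of the Npc1 exons.

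Soat1 (ENSMUSG00000026600, chr1:156424525-156474331, minus strand), the esterifying enzyme of macrophages and most other cells, read in W/W livers 0.796, 0.862, 0.517 and 0.945 TPM with chow, 0.927, 0.620, 0.802 and 1.61 with vehicle and 1.04, 1.59, 1.64 and 1.29 with T0901317. Values in W/F livers were 0.465, 0.578, 0.580 and 0.655 TPM with chow, 11.1, 14.9, 17.4 and 10.8 with vehicle and 0.750, 4.54, 1.11 and 0.806 with T0901317. Values in F/F livers were 2.80, 2.52, 3.58 and 3.25 TPM with chow, 15.7, 16.2, 15.4 and 17.9 with vehicle and 8.10, 7.73, 5.61 and 7.92 with T0901317. In W/W livers every value was at or under 1.64 TPM whatever the diet. Every F/F liver on chow was above every W/W liver of any treatment. W/F livers were as low as W/W livers on chow, reached the range next to F/F livers on vehicle, and came back to 0.750, 0.806 and 1.11 TPM in 3 of the 4 livers on T0901317, with replicate 2 at 4.54 TPM. Means were 0.569 ± 0.0782 TPM in W/F on chow, the lowest, and 16.3 ± 1.10 TPM in F/F on vehicle, the highest, and 6 of the 8 neighbouring pairs overlapped.

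Soat2 (ENSMUSG00000023045, chr15:102150526-102163469, plus strand), the hepatocyte enzyme of the pair, stood at 40.2 to 101 TPM over all livers. Its means were 63.6 ± 10.7 TPM with chow, 56.8 ± 8.62 with vehicle and 87.6 ± 13.4 with T0901317 in W/W livers. They were 54.2 ± 12.5 TPM with chow, 82.7 ± 15.7 with vehicle and 61.4 ± 8.15 with T0901317 in W/F livers and 54.4 ± 6.98 TPM with chow, 72.97 ± 12.2 with vehicle and 91.1 ± 9.01 with T0901317 in F/F livers. Every pair of neighbouring groups overlapped. The 4 W/W livers on T0901317, at 74.02, 101, 78.3 and 96.9 TPM, were all above the 4 on vehicle, at 44.7, 62.5, 63.4 and 56.5 TPM.

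On chow, replacing 1 allele was not accompanied by a called change of any of the 8 genes, and replacing both was accompanied by more Soat1. In W/F against W/W on chow, 0 of the 8 genes were called as deposited, beside 0.487% of all genes, and 0 after rescaling, beside 0.601%. The 1 gene with an unadjusted p under 0.05 was Scarb1, with a log2 difference of -0.21 (SE 0.10, adjusted p 0.879). In F/F against W/W on chow, 4 of the 8 genes were called as deposited, beside 46.7% of all genes, and 2 after rescaling, beside 29.9%. Soat1 rose by 1.18 (SE 0.22, adjusted p 0.000104) and by 0.95 (adjusted p 0.00073) after rescaling, with no overlap of the groups. Scarb1 rose by 0.49 (SE 0.10, adjusted p 0.000366) as deposited, with no overlap, while its rescaled difference of 0.11 (adjusted p 0.37) was not called. Mylip and Npc2 were called higher only as deposited, at 0.46 (SE 0.18, adjusted p 0.0338) and 0.45 (SE 0.17, adjusted p 0.0287), against 0.12 and 0.07 after rescaling. Both pairs of groups overlapped. The Mylip call was lost without F/F chow replicate 3 (0.42), F/F chow replicate 4 (0.34) or W/W chow replicate 3 (0.31), and the Npc2 call without F/F chow replicate 1 (0.45), F/F chow replicate 3 (0.41), F/F chow replicate 4 (0.39), W/W chow replicate 3 (0.40) or W/W chow replicate 4 (0.43), so that the number called fell to 2 without F/F chow replicate 3, F/F chow replicate 4 or W/W chow replicate 3. Soat2 was called lower only after rescaling, at -0.59 (adjusted p 0.00261), against -0.21 (SE 0.16, adjusted p 0.278) as deposited. For F/F against W/F on chow, 4 of the 8 genes were called as deposited, beside 41.4% of all genes, and 3 after rescaling, beside 31.2%. Soat1 was higher by 1.36 (SE 0.22, adjusted p 2.04e-05), Npc2 by 0.75 (SE 0.17, adjusted p 0.000823) and Scarb1 by 0.70 (SE 0.10, adjusted p 4.52e-06), and these 3 were called on both scales, at 1.16, 0.40 and 0.35 after rescaling. The Mylip difference of 0.48 (SE 0.18, adjusted p 0.0283) was called only as deposited and was lost without F/F chow replicate 3 (0.45), F/F chow replicate 4 (0.37), W/F chow replicate 1 (0.45), W/F chow replicate 3 (0.43) or W/F chow replicate 4 (0.44).

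On the MASH diet with vehicle, W/F and F/F livers alike had more Soat1, Npc2 and Mylip than W/W livers on both scales. The groups did not overlap for these genes. The share of all genes whose groups did not overlap was not counted, here or in any other comparison. For F/F against W/W, 7 of the 8 genes were called as deposited, beside 76.5% of all genes, and 6 after rescaling, beside 59.1%. Soat1 rose by 3.14 (SE 0.22, adjusted p 2.47e-13) and by 2.48 after rescaling. Npc2 rose by 2.28 (SE 0.17, adjusted p 6.04e-13) and by 1.43, and Mylip by 1.32 (SE 0.18, adjusted p 7.29e-08) and by 0.51. Summed macrophage markers, given in full after the ratios, were also higher in this comparison. They read 4267 to 5384 TPM in F/F and 299 to 507 TPM in W/W livers on vehicle. Summed stellate cell, bile duct and neutrophil markers were higher too, and summed hepatocyte markers were lower. The part of any of these markers in the differences was not tested. The other genes depended on the scale. Lrp1 differed by 0.46 (SE 0.15, adjusted p 0.00622) as deposited and by -0.40 (adjusted p 0.00772) after rescaling, a called rise on 1 scale and a called fall on the other. Soat2 did the same, at 0.36 (SE 0.16, adjusted p 0.0445) and -0.50 (adjusted p 0.00461), and its deposited call was lost without F/F vehicle replicate 3 (0.37), F/F vehicle replicate 4 (0.25), W/W vehicle replicate 1 (0.25) or W/W vehicle replicate 4 (0.36). Scarb1 was not called as deposited, at 0.01 (SE 0.10, adjusted p 0.934), and fell by 0.84 after rescaling (adjusted p 7.25e-10). Npc1 and Vldlr rose only as deposited, by 0.71 (SE 0.19, adjusted p 0.00107) and 0.80 (SE 0.21, adjusted p 0.000862), against -0.13 (adjusted p 0.516) and 0.39 (adjusted p 0.105) after rescaling. The median of the 8 genes was 0.76 as deposited and 0.13 after rescaling, beside 0.70 and 0.03 for all genes tested.

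Livers with a single F allele also had more Soat1, Npc2 and Mylip than W/W livers on vehicle, and these 3 genes were called on both scales. In W/F against W/W, 5 of the 8 genes were called as deposited, beside 68.5% of all genes, and 5 after rescaling, beside 53.1%. Soat1 rose by 2.87 (SE 0.22, adjusted p 5.90e-12, rescaled 2.39), Npc2 by 1.83 (SE 0.17, adjusted p 1.66e-10, rescaled 1.17) and Mylip by 1.19 (SE 0.18, adjusted p 8.10e-07, rescaled 0.57). Npc1 and Soat2 rose as deposited, by 0.69 (SE 0.19, adjusted p 0.00171) and 0.53 (SE 0.16, adjusted p 0.0045), but not after rescaling, at 0.05 and -0.13. After rescaling Lrp1 and Scarb1 fell, by 0.33 and 0.62 (adjusted p 0.0269 and 4.09e-07). As deposited they were at 0.32 and 0.04 and not called, although the Lrp1 difference was called without W/F vehicle replicate 1 (0.38), W/F vehicle replicate 4 (0.39) or W/W vehicle replicate 4 (0.40). Vldlr, at 0.43 (SE 0.21, adjusted p 0.068, rescaled 0.17), was likewise not called as deposited, but was called without W/F vehicle replicate 1 (0.55) or W/W vehicle replicate 3 (0.53). Comparing the mutants directly, in F/F against W/F on vehicle, 0 of the 8 genes were called as deposited, beside 21.3% of all genes, and 0 after rescaling, beside 10.6%. The 1 gene with an unadjusted p under 0.05 was Npc2, whose groups did not overlap and whose difference was 0.46 (SE 0.17, adjusted p 0.0518). It was called without F/F vehicle replicate 3 (0.53, adjusted p 0.0411). After rescaling it was 0.26 (adjusted p 0.246), and the groups overlapped. The Soat1 difference was 0.27 (SE 0.22, adjusted p 0.41).

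With T0901317, Mylip and Soat1 were higher in F/F livers than in either other genotype on both scales, Npc2 was so as deposited, and fewer genes were called between W/F and W/W livers. In F/F against W/W livers on T0901317, 4 of the 8 genes were called as deposited, beside 63.2% of all genes, and 4 after rescaling, beside 46.9%. Soat1 was higher by 1.80 (SE 0.22, adjusted p 7.88e-08, rescaled 1.41) and Mylip by 1.26 (SE 0.18, adjusted p 5.17e-07, rescaled 0.76). Npc2 was higher by 0.82 (SE 0.17, adjusted p 0.000128), a difference of 0.29 (adjusted p 0.0684) after rescaling that was not called. Scarb1 was called higher as deposited, at 0.30 (SE 0.10, adjusted p 0.0138), and lower after rescaling, at -0.22 (adjusted p 0.0313), and the deposited call was lost without W/W T0901317 replicate 2 (0.25). Soat2 was called only after rescaling, at -0.46 (adjusted p 0.0113), against 0.06 as deposited. In F/F against W/F on T0901317, 7 of the 8 genes were called as deposited, beside 62.6% of all genes, and 5 after rescaling, beside 40.3%. Soat1, Npc2 and Mylip were higher by 1.75 (SE 0.22, adjusted p 2.30e-07), 1.23 (SE 0.17, adjusted p 7.21e-07) and 1.15 (SE 0.18, adjusted p 2.97e-06), and by 1.37, 0.69 and 0.64 after rescaling. Soat2, Vldlr and Npc1 were higher only as deposited, by 0.57, 0.68 and 0.54. The Npc1 call was lost without W/F T0901317 replicate 1 (0.42). Scarb1 was called higher as deposited, at 0.31, and lower after rescaling, at -0.22, and its deposited call was lost without W/F T0901317 replicate 1 (0.25). Lrp1 was called lower only after rescaling, at -0.33 (adjusted p 0.0363), against 0.20 as deposited.

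In W/F against W/W on T0901317, 1 of the 8 genes was called as deposited, beside 9.88% of all genes, and 3 after rescaling, beside 13.4%. The deposited call was Soat2, at -0.50 (SE 0.16, adjusted p 0.0408, rescaled -0.49), with no overlap of the groups. It was lost without W/F T0901317 replicate 1 (-0.42), W/F T0901317 replicate 2 (-0.52), W/F T0901317 replicate 3 (-0.50), W/W T0901317 replicate 2 (-0.43) or W/W T0901317 replicate 4 (-0.45). The libraries decided the count here, which ran from 0 to 2 when 1 was left out. Without W/F replicate 2, the liver with high Soat1 and Npc2, Npc2 was called lower at -0.67 with an adjusted p of 0.000885, against -0.41 (SE 0.17, adjusted p 0.138) with it. After rescaling Npc2 was called with all libraries, at -0.40 (adjusted p 0.0429). Vldlr was at -0.62 (SE 0.21, adjusted p 0.051) as deposited and called after rescaling, at -0.68 (adjusted p 0.0268), and as deposited it was called without W/F T0901317 replicate 2 (-0.72), W/W T0901317 replicate 1 (-0.74) and W/W T0901317 replicate 3 (-0.74).

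**Figure D2:**
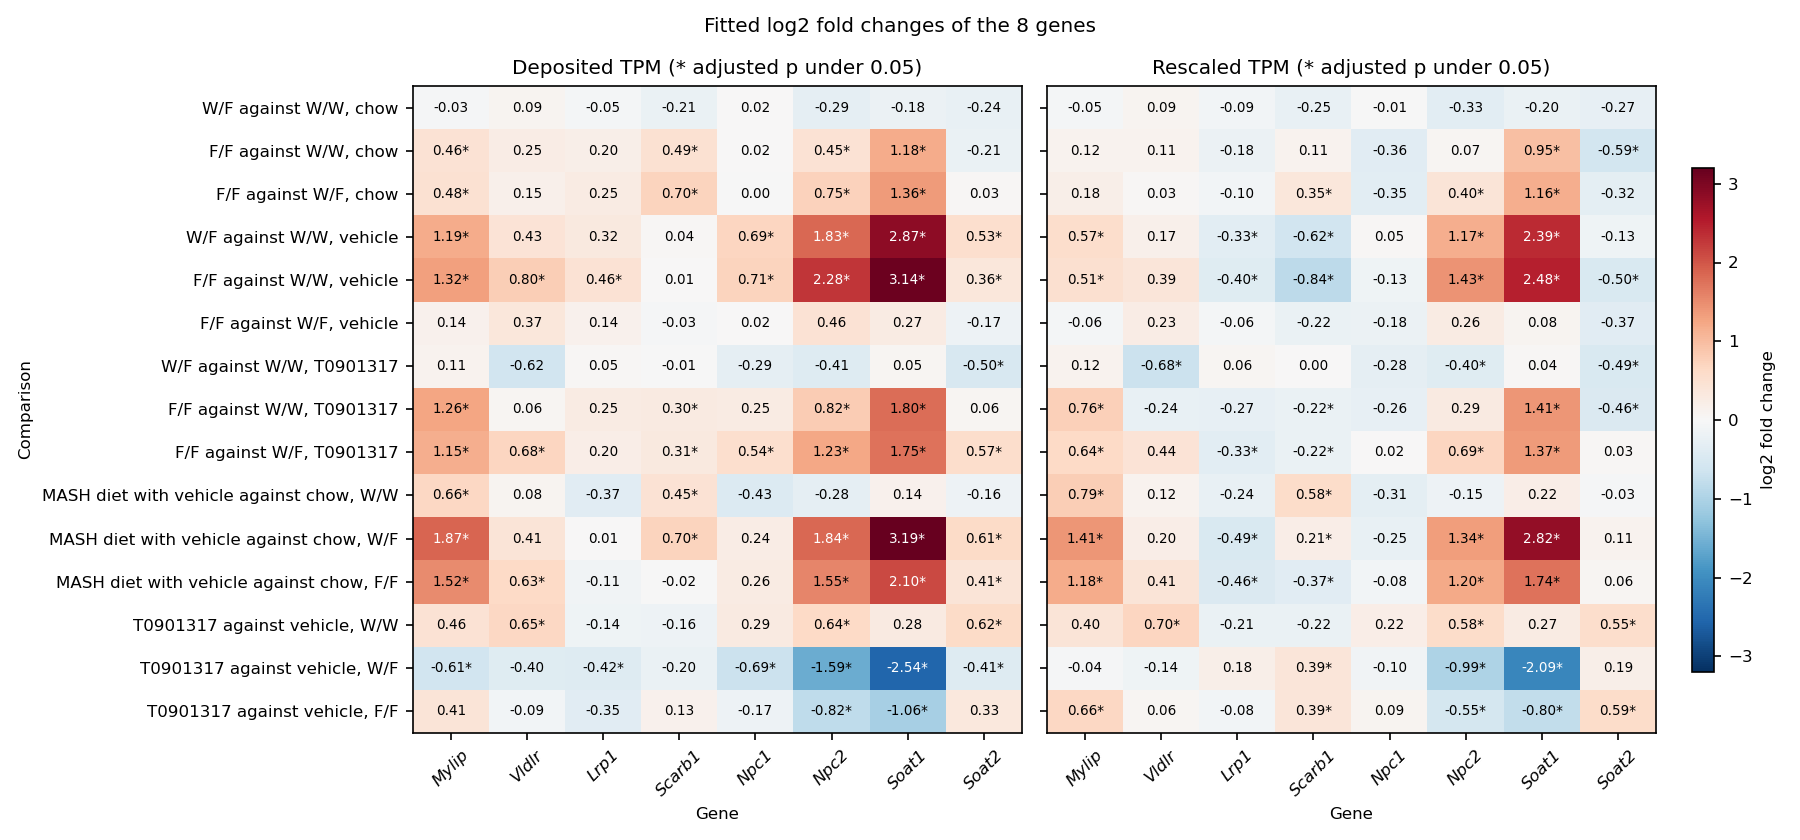
Fitted log2 differences of the 8 genes (columns) in 15 comparisons (rows), as deposited (left) and after rescaling (right), where red is higher and blue lower in the first-named group and an asterisk marks an adjusted p under 0.05. Soat1, Npc2 and Mylip are called higher in both mutants against W/W on vehicle on both sides, while Scarb1 moves from 0.01 to -0.84 in F/F against W/W on vehicle.

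The diet comparison asks how each genotype's genes stood on the MASH diet with vehicle against chow. Cohort, and oral dosing as recorded, differed along with the diet. In W/W livers only Mylip and Scarb1 were called, and Soat1 and Npc2 were not. There, 2 of the 8 genes were called as deposited, beside 12.9% of all genes, and 2 after rescaling, beside 15.4%. Mylip rose by 0.66 (SE 0.18, adjusted p 0.0119, rescaled 0.79), a call lost without W/W chow replicate 3 (0.51), where the number called was 1. Scarb1 rose by 0.45 (SE 0.10, adjusted p 0.00364, rescaled 0.58). The W/W difference of Soat1 was 0.14 (SE 0.22, adjusted p 0.768) and that of Npc2 -0.28 (SE 0.17, adjusted p 0.321). Lrp1 and Npc1, at -0.37 and -0.43, were not called, but Lrp1 was without W/W chow replicate 1 (-0.48) and Npc1 without W/W vehicle replicate 4 (-0.57). In W/F livers, 5 of the 8 genes were called as deposited, beside 61% of all genes, and 5 after rescaling, beside 54.9%. Soat1 rose by 3.19 (SE 0.22, adjusted p 6.27e-13, rescaled 2.82), Mylip by 1.87 (SE 0.18, adjusted p 2.04e-10, rescaled 1.41) and Npc2 by 1.84 (SE 0.17, adjusted p 1.32e-10, rescaled 1.34). Scarb1 rose by 0.70 (SE 0.10, adjusted p 7.91e-07, rescaled 0.21), Soat2 rose only as deposited, by 0.61 (0.11 after rescaling), and Lrp1, at 0.01 as deposited, fell by 0.49 after rescaling. Vldlr, at 0.41, was called as deposited without W/F chow replicate 3 (0.56) or W/F vehicle replicate 1 (0.53). In F/F livers, 5 of the 8 genes were called as deposited, beside 55.8% of all genes, and 5 after rescaling, beside 47%. Soat1 rose by 2.10 (SE 0.22, adjusted p 5.87e-09, rescaled 1.74), Npc2 by 1.55 (SE 0.17, adjusted p 1.01e-08, rescaled 1.20) and Mylip by 1.52 (SE 0.18, adjusted p 2.60e-08, rescaled 1.18). Vldlr and Soat2 rose only as deposited, by 0.63 and 0.41 (0.41 and 0.06 after rescaling). The Soat2 call was lost without F/F chow replicate 1 (0.37), F/F chow replicate 2 (0.39), F/F chow replicate 3 (0.40) or F/F vehicle replicate 4 (0.30). Scarb1, at -0.02 as deposited, fell by 0.37 after rescaling, and Lrp1, at -0.11, fell by 0.46.

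The difference between the genotypes' diet responses was tested directly. The diet responses of W/F and F/F are each set against the same W/W livers, so the 2 results are not independent. For W/F minus W/W, 5 of the 8 genes were called as deposited, beside 54.6% of all genes, and 4 after rescaling, beside 40.1%. The response of Soat1 was larger in W/F by 3.04 (SE 0.32, adjusted p 1.01e-08, rescaled 2.60), that of Npc2 by 2.12 (SE 0.24, adjusted p 3.66e-08, rescaled 1.50) and that of Mylip by 1.21 (SE 0.25, adjusted p 0.000174, rescaled 0.62). Those of Soat2 and Npc1 were larger only as deposited, by 0.77 and 0.68 (0.14 and 0.06 after rescaling), and the Npc1 call was lost without W/F chow replicate 3 (0.55), W/F vehicle replicate 2 (0.55), W/F vehicle replicate 3 (0.62), W/W chow replicate 1 (0.58), W/W chow replicate 2 (0.60), W/W vehicle replicate 1 (0.53) or W/W vehicle replicate 3 (0.63). For Scarb1 the difference was 0.25 as deposited, not called, and -0.37 (adjusted p 0.0144) after rescaling. The Lrp1 difference of 0.38 was called as deposited only without W/F chow replicate 4 (0.50). For F/F minus W/W, 6 of the 8 genes were called as deposited, beside 46% of all genes, and 3 after rescaling, beside 26.8%. The response of Soat1 was larger in F/F by 1.96 (SE 0.32, adjusted p 1.90e-05, rescaled 1.52), and that of Npc2 by 1.83 (SE 0.24, adjusted p 1.26e-06, rescaled 1.35). The Scarb1 responses differed on both scales, at -0.48 (SE 0.15, adjusted p 0.00889) and -0.95. Scarb1 rose in W/W livers on both scales, and in F/F livers it was not called as deposited and fell after rescaling. Mylip, Npc1 and Soat2 were called only as deposited, at 0.86, 0.70 and 0.57 (0.39, 0.23 and 0.10 after rescaling). The Npc1 call was lost without F/F chow replicate 2 (0.51), F/F vehicle replicate 4 (0.64), W/W chow replicate 1 (0.60), W/W chow replicate 2 (0.63), W/W vehicle replicate 1 (0.55) or W/W vehicle replicate 3 (0.65), and the Soat2 call without F/F chow replicate 1 (0.52), F/F chow replicate 2 (0.55), F/F chow replicate 3 (0.56), F/F vehicle replicate 4 (0.46), W/W chow replicate 1 (0.49), W/W chow replicate 4 (0.52), W/W vehicle replicate 1 (0.46) or W/W vehicle replicate 4 (0.57).

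Against vehicle, T0901317 was accompanied by opposite changes of Npc2 in W/W and in mutant livers. In W/W livers, 3 of the 8 genes were called as deposited, beside 10.8% of all genes, and 3 after rescaling, beside 13.5%. Npc2 rose by 0.64 (SE 0.17, adjusted p 0.0104, rescaled 0.58), Soat2 by 0.62 (SE 0.16, adjusted p 0.00938, rescaled 0.55) and Vldlr by 0.65 (SE 0.21, adjusted p 0.037, rescaled 0.70). Each of these calls depended on single livers. The Npc2 call was lost without W/W T0901317 replicate 2 (0.56) or W/W vehicle replicate 1 (0.55), the Soat2 call without W/W vehicle replicate 1 (0.51) and the Vldlr call without W/W T0901317 replicate 2 (0.49), W/W T0901317 replicate 4 (0.58), W/W vehicle replicate 1 (0.57) or W/W vehicle replicate 4 (0.57), so that 1 gene was called without W/W T0901317 replicate 2 and 0 without W/W vehicle replicate 1. The Vldlr call was also lost with a pseudocount of 0.1 (1.36, adjusted p 0.0601). Mylip, the LXR target, stood at 0.46 (SE 0.18, adjusted p 0.0943) and was not called, but was called without W/W T0901317 replicate 1 (0.60, adjusted p 0.0313). In W/F livers, 6 of the 8 genes were called as deposited, beside 65.9% of all genes, and 3 after rescaling, beside 50.8%. Soat1 fell by 2.54 (SE 0.22, adjusted p 1.56e-10; -2.09 after rescaling) and Npc2 by 1.59 (SE 0.17, adjusted p 4.28e-09; -0.99). Without W/F T0901317 replicate 2 these differences were -2.92 and -1.86. Mylip and Npc1 fell only as deposited, at -0.61 and -0.69 (-0.04 and -0.10 after rescaling). Lrp1 and Soat2 were called lower as deposited, at -0.42 and -0.41, and stood at 0.18 and 0.19 after rescaling. The Lrp1 call was lost without W/F T0901317 replicate 1 (-0.26), W/F vehicle replicate 2 (-0.36) or W/F vehicle replicate 3 (-0.34), and the Soat2 call without W/F T0901317 replicate 1 (-0.33), W/F vehicle replicate 2 (-0.32) or W/F vehicle replicate 3 (-0.37). Scarb1, at -0.20 as deposited, rose by 0.39 (adjusted p 0.000295) after rescaling. Vldlr, at -0.40, was called as deposited without W/F vehicle replicate 1 (-0.52).

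In F/F livers given T0901317, 2 of the 8 genes were called as deposited, beside 35.1% of all genes, and 5 after rescaling, beside 16.3%. Soat1 fell by 1.06 (SE 0.22, adjusted p 0.000787; -0.80 after rescaling) and Npc2 by 0.82 (SE 0.17, adjusted p 0.00068; -0.55). After rescaling Mylip, Soat2 and Scarb1 were also called, higher by 0.66 (adjusted p 0.00203), 0.59 (adjusted p 0.00567) and 0.39 (adjusted p 0.00158). As deposited these were 0.41, 0.33 and 0.13, not called, although Mylip was called without F/F vehicle replicate 4 (0.52, adjusted p 0.0362). Lrp1, at -0.35, was called as deposited without F/F T0901317 replicate 1 (-0.43). The differences between genotypes in the T0901317 response, which again share the W/W livers, were tested directly. For W/F minus W/W, 6 of the 8 genes were called as deposited, beside 58.5% of all genes, and 4 after rescaling, beside 44%. Soat1 and Npc2 responded lower in W/F, at -2.82 and -2.23 (adjusted p 2.31e-08 and 1.19e-08), and by -2.35 and -1.57 after rescaling. Vldlr was called on both scales, at -1.05 and -0.84. Mylip, Soat2 and Npc1 were called only as deposited, at -1.08, -1.03 and -0.98 (-0.45, -0.36 and -0.32 after rescaling), and Scarb1 only after rescaling, at 0.62 against -0.05. For F/F minus W/W, 2 of the 8 genes were called as deposited, beside 30.4% of all genes, and 3 after rescaling, beside 17.4%. Soat1 and Npc2 responded lower in F/F, at -1.34 and -1.47 (adjusted p 0.00232 and 5.79e-05), and at -1.06 and -1.13 after rescaling. Scarb1 was called only after rescaling, at 0.62 (adjusted p 0.000529). Vldlr, at -0.74 (SE 0.29, adjusted p 0.0526, rescaled -0.63), was not called, but was called in 5 of the 16 omissions of 1 liver, for example without W/W T0901317 replicate 1 (-0.86, adjusted p 0.0303). For Mylip the difference in response was -0.06 (SE 0.25, adjusted p 0.886).

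Ratios of 2 genes within a library do not depend on library scaling. Soat1 stood at 0.0103 to 0.0142 of the Soat2 level in W/W livers on chow, 0.00993 to 0.0284 on vehicle and 0.0133 to 0.0209 on T0901317. For W/F livers the ratio was 0.00877 to 0.0163, 0.135 to 0.195 and 0.0113 to 0.0725. In F/F livers it was 0.0491 to 0.0680, 0.197 to 0.256 and 0.0621 to 0.0979. Soat1 was the smaller of the pair in each library, and its share was largest in F/F livers on vehicle, where all 4 ratios were above those of the 4 W/F livers on vehicle. The ratio of Npc2 to Npc1 was 1.16 to 1.70, 1.23 to 1.98 and 1.68 to 2.79 in W/W livers on chow, vehicle and T0901317. It was 0.858 to 1.50, 2.88 to 4.35 and 1.36 to 3.17 in W/F livers, and 1.47 to 2.18, 4.03 to 5.17 and 2.42 to 3.45 in F/F livers. On vehicle both mutants lay above all W/W livers in this ratio, so Npc2 and Npc1 did not move in proportion.

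**Figure D3:**
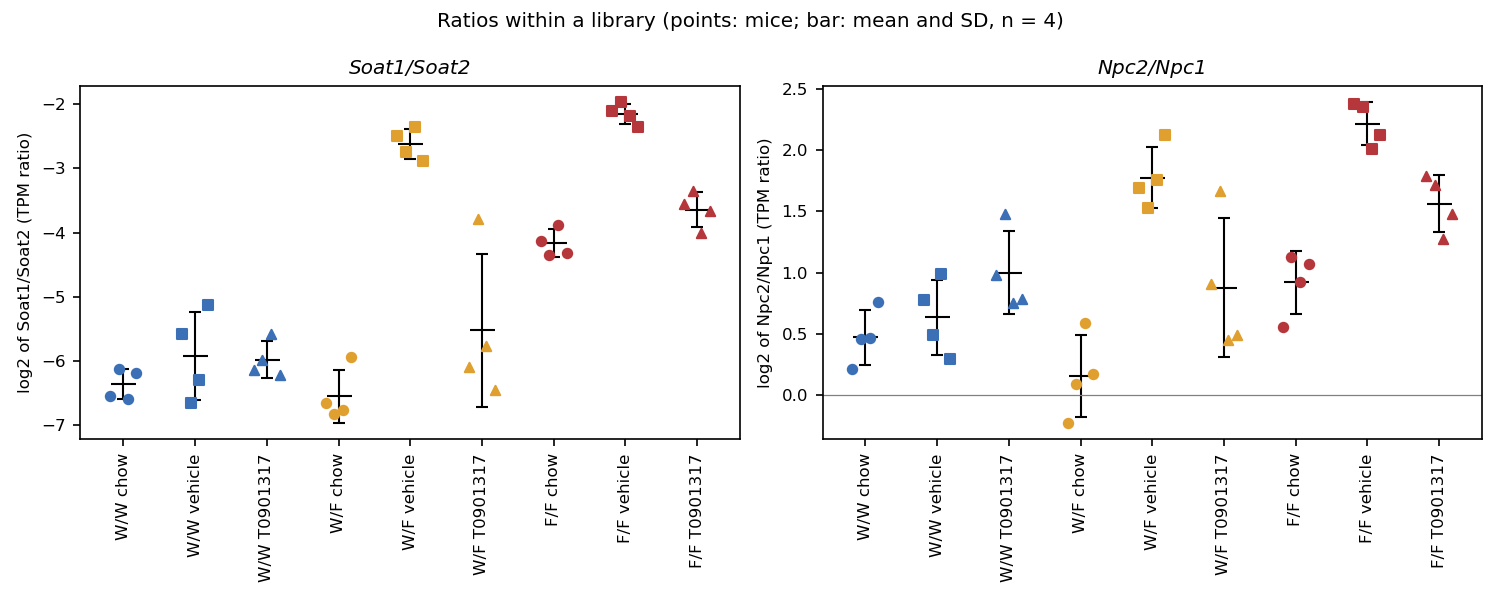
Log2 ratio of Soat1 to Soat2 (left) and of Npc2 to Npc1 (right) in each liver, with mean and SD (n = 4) and colours by genotype. Both ratios peak in W/F and F/F livers on vehicle, and the 4 F/F livers on vehicle lie at Soat1/Soat2 ratios of 0.197 to 0.256.

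Summed markers of macrophages were highest in mutant livers on vehicle, where Soat1 and Npc2 were highest too. The summed level of 12 macrophage and Kupffer cell markers was 202 to 297 TPM in W/W livers on chow, 299 to 507 on vehicle and 301 to 595 on T0901317. In W/F livers it was 139 to 281, 3807 to 4712 and 259 to 1609.6 TPM, where replicate 2 on T0901317 gave the highest value and the other 3 were at most 384.04 TPM. In F/F livers it was 701 to 1098, 4267 to 5384 and 1831 to 2979 TPM. None of the 12 was at 0 in all 4 livers of any group. In F/F against W/W on vehicle 8 of the 12 rose and 4 fell, on both scales, beside 69.3% of all genes higher and 7.13% lower as deposited and 31.0% and 28.1% after rescaling. Lyz2 and Cd68, found in macrophages at large, rose from 91.3 to 3228 and from 10.3 to 289.8 TPM. The 4 that fell are markers of resident Kupffer cells or shared with them: Clec4f fell from 72.3 to 0.354 TPM, Vsig4 from 23.9 to 1.13, Timd4 from 6.15 to 0.101 and Marco from 7.60 to 0.733.

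Per 1000 TPM of the sum of these markers, Soat1 stood between 1.9998 and 3.93 TPM in all 36 livers. Within this range its level followed the sum, but not each marker. Soat1 was not set in this way against the sums of the other marker lists. Lyz2, at a mean of 3228 TPM, was the largest part of the sum in F/F livers on vehicle. Clec4f, Vsig4, Timd4 and Marco were lower there than in W/W livers on vehicle. Npc2 stood between 34.6 and 302 TPM and Mylip between 4.16 and 51.02 TPM per 1000 TPM of markers, with the lowest values of both in mutant livers on vehicle. Markers of other cells are given for the same comparison, as deposited, where 69.3% of all genes were higher. Hepatocyte markers summed to 24183 to 27714 TPM in F/F and 57555 to 80282 TPM in W/W livers on vehicle (5 of 7 lower, 0 higher as deposited). Stellate cell markers summed to 968 to 1186 against 95.5 to 155 TPM (8 of 8 higher), and bile duct markers to 2922 to 3568 against 54.1 to 61.6 TPM (6 of 6 higher). Neutrophil markers summed to 142 to 428 against 4.44 to 8.93 TPM (5 of 6 tested higher), and sinusoidal endothelial markers to 83.5 to 121 against 75.95 to 87.7 TPM (3 higher, 2 lower of 7). After rescaling the endothelial sums were lower in F/F, at 58.9 to 82.8 against 95.5 to 110.3 rescaled TPM. The hepatocyte, stellate cell, bile duct and neutrophil sums kept their direction. T and B cell markers reached at most 9.80 TPM in any liver (2 of 5 tested higher). Ly6g, a neutrophil marker, was at 0 in all 4 livers of W/W on chow, W/F on chow and W/F on T0901317, and Mpo in those of W/F and F/F on chow. The part of cell make-up in the changes of Soat1, Npc2 and Mylip was not tested.

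**Figure D4:**
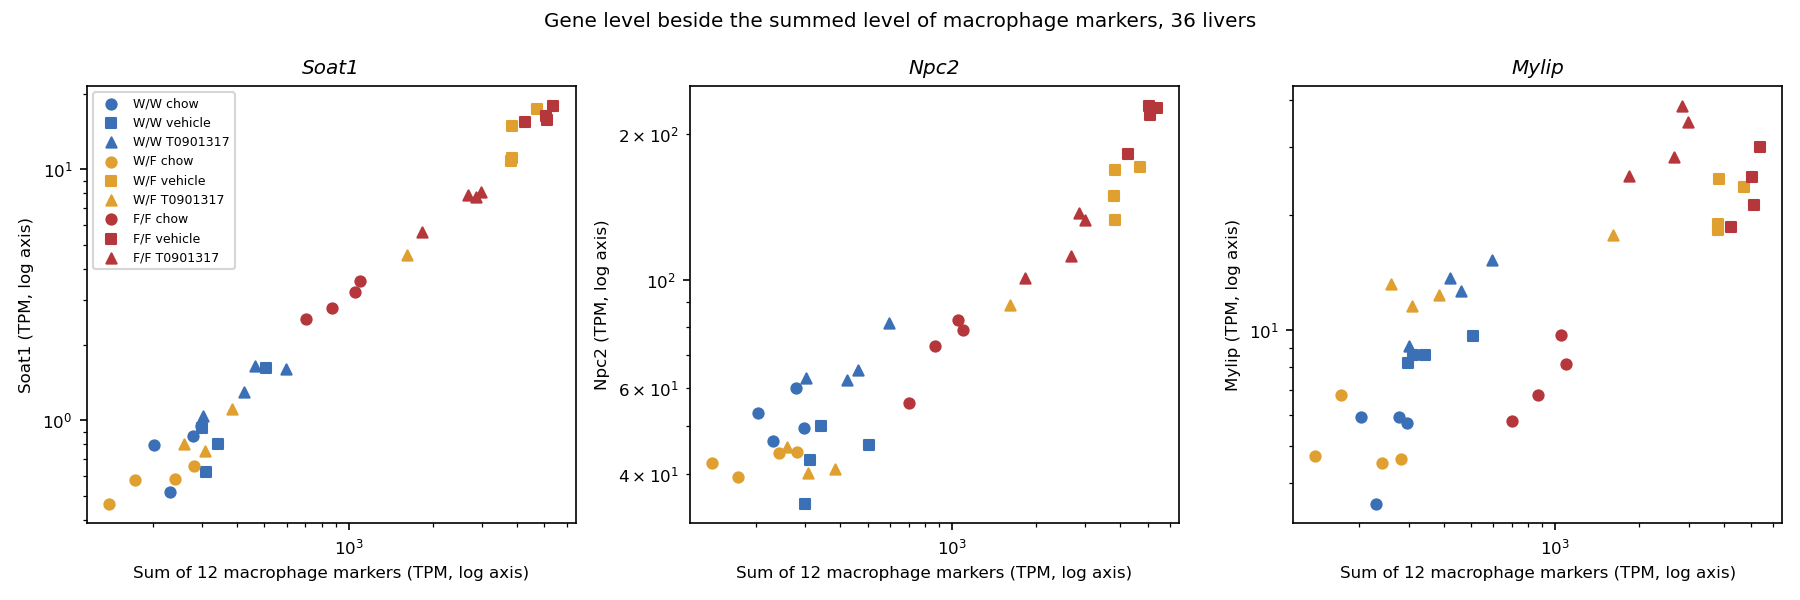
TPM of Soat1, Npc2 and Mylip (vertical, log axis) beside the summed TPM of 12 macrophage markers (horizontal, log axis), with 1 point for each of 36 livers, coloured by genotype and shaped by treatment. Soat1 lies along a line, at 1.9998 to 3.93 TPM per 1000 TPM of markers, while Npc2 and Mylip rise less steeply than the markers.

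Over the 36 libraries, which share genotype and treatment groups, the 2 genes closest to each of the 8 in log2(TPM + 1) were found by Pearson's r among all genes tested. For Soat1 they were Cd44 (r = 0.99, 0.99 after rescaling) and Hacd4 (r = 0.99, 0.99 after rescaling). For Npc2 they were Reep5 (r = 0.98, 0.96 after rescaling) and Mfsd12 (r = 0.98, 0.96 after rescaling), and for Mylip Abcg1 (r = 0.97, 0.95 after rescaling) and Rhbdd2 (r = 0.93, 0.80 after rescaling). For Npc1 they were Tbcel (r = 0.89, 0.82 after rescaling) and Nfx1 (r = 0.88, 0.77 after rescaling), and for Lrp1 Stat3 (r = 0.92, 0.67 after rescaling) and Eprs (r = 0.90, 0.90 after rescaling). The likeness was weaker for Vldlr, with Nfe2l1 (r = 0.83, 0.63 after rescaling) and Gal3st1 (r = 0.83, 0.79 after rescaling), for Soat2, with Rnf24 (r = 0.82, 0.73 after rescaling) and Vldlr (r = 0.81, 0.55 after rescaling), and for Scarb1, with Egln3 (r = 0.80, 0.63 after rescaling) and Adra2b (r = 0.78, 0.36 after rescaling). These are descriptions of 36 libraries and carry no test.

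The other genes of the pathway give the setting of the 8. In F/F against W/W on vehicle, 69.3% of all genes tested were higher and 7.13% lower as deposited, and 31.0% and 28.1% after rescaling. Of 20 tested lipoprotein receptors and adaptors (of 23 listed), 17 were higher, 0 lower and 3 not called as deposited (median log2 difference 0.93), and 10, 5 and 5 after rescaling (median 0.19). The sorting receptor Sorl1 rose by 2.56 as deposited and 2.02 after rescaling, and the scavenger receptors Stab1 and Msr1 by 2.06 as deposited and 1.24 after rescaling, and by 2.01 as deposited and 1.28 after rescaling. Of 18 genes of lysosomal sterol release and transport, 11 were higher, 2 lower and 5 not called as deposited (median log2 difference 0.59), and 4, 9 and 5 after rescaling (median -0.26). Among these, the sterol transporters Gramd1b and Gramd1a rose, at 1.71 as deposited and 1.09 after rescaling, and at 1.51 as deposited and 0.70 after rescaling, as did the late endosomal sterol-binding protein Stard3 (1.12 as deposited and 0.30 after rescaling). The cytosolic sterol carrier Stard4 and the lysosomal cholesterol sensor Gpr155 fell, at -1.32 as deposited and -2.11 after rescaling, and at -0.75 as deposited and -1.48 after rescaling.

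Of 9 tested genes of ester formation and breakdown (of 10 listed, Soat1 and Soat2 not among them), 2 were higher, 6 lower and 1 not called as deposited (median log2 difference -0.56), and 1, 7 and 1 after rescaling (median -1.33). Nceh1, a neutral cholesteryl ester hydrolase, rose from 12.97 ± 1.51 to 41.7 ± 4.14 TPM (SD, n = 4). The liver carboxylesterases Ces3a and Ces1d and the esterase Aadac fell, at -1.75 as deposited and -2.61 after rescaling, -1.54 as deposited and -2.40 after rescaling, and -1.52 as deposited and -2.38 after rescaling. Of 9 LXR target genes, 1 was higher, 6 lower and 2 not called as deposited (median log2 difference -2.62), and 1, 8 and 0 after rescaling (median -3.47). The cholesterol exporter Abcg1 rose, from 6.51 ± 1.46 to 35.5 ± 3.89 TPM, as Mylip did. The lipogenic genes Scd1, Srebf1 and Fasn fell, Scd1 from 7896 ± 2382 to 13.1 ± 1.61 TPM and Srebf1 from 398 ± 171 to 23.8 ± 1.93 TPM. Of 15 sterol-repressed genes of the SREBP-2 programme, 5 were higher, 3 lower and 7 not called as deposited (median log2 difference -0.03), and 1, 10 and 4 after rescaling (median -0.81). The squalene oxidising enzyme Sqle rose, at 1.59 as deposited and 0.89 after rescaling. Insig1, which holds SREBP proteins in the endoplasmic reticulum, and the cholesterol synthesis enzyme Sc5d fell, at -2.33 as deposited and -3.18 after rescaling, and at -0.33 as deposited and -1.19 after rescaling.

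**Figure D5:**
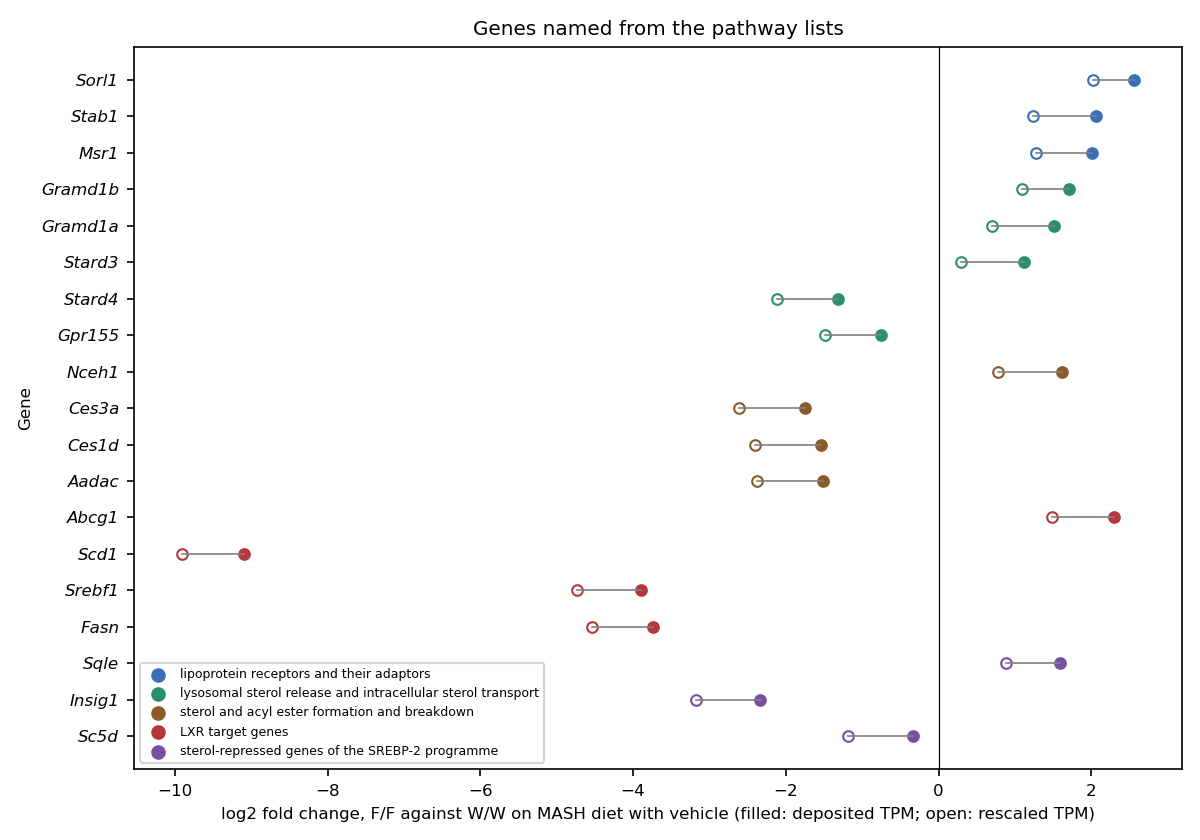
Log2 difference of the named pathway genes in F/F against W/W on vehicle (horizontal), with filled points as deposited and open points after rescaling, coloured by list. Abcg1, Nceh1 and the receptors lie to the right of 0 on both scales, and Scd1 lies farthest to the left.

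The same lists were counted in F/F livers given T0901317 against vehicle, where 3.95% of all genes were higher and 31.2% lower as deposited, and 8.33% and 7.98% after rescaling. Of the 9 LXR target genes, 8 were higher, 0 lower and 1 not called as deposited (median log2 difference 1.21), and 9, 0 and 0 after rescaling (median 1.42). Of the receptors and adaptors, 0 were higher, 11 lower and 9 not called as deposited (median log2 difference -0.30), and 2, 4 and 14 after rescaling (median -0.06). Of the lysosomal and transport genes, 0 were higher, 4 lower and 14 not called as deposited (median log2 difference -0.17), and 3, 1 and 14 after rescaling (median 0.08). Of the ester genes, 3 were higher, 2 lower and 4 not called as deposited (median log2 difference 0.17), and 6, 0 and 3 after rescaling (median 0.44), and of the SREBP-2 genes, 1 was higher, 4 lower and 10 not called as deposited (median log2 difference -0.40), and 3, 1 and 11 after rescaling (median -0.15). All genes tested had a median of -0.24 in this comparison as deposited and -0.02 after rescaling. On chow, F/F against W/W, 43% of all genes were higher and 3.65% lower as deposited, and 15.9% and 14% after rescaling. Of the LXR target genes there, 0 were higher, 5 lower and 4 not called as deposited (median log2 difference -0.96), and 0, 6 and 3 after rescaling (median -1.34), beside medians of 0.29 and 0.00 for all genes.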

How the data were processed

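PolyA RNA of 36 mouse livers was measured by sequencing, 4 libraries in each of 9 groups taken from the sample labels. The authors deposited 1 table of TPM, per its column names. Per the submitters' processing notes, Trimmomatic 0.36, STAR 2.5.2b, featureCounts and Subread 1.5.2 and the builds GRCm38 and mm10 were used. The annotation, the strand setting and the TPM formula are not given in the sources used here. Gene coordinates are those of GENCODE M21 on GRCm38.

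Genes that reached 1 TPM in 4 or more samples (16638) were kept and taken as log2(TPM + 1). A model of 9 group means over all libraries was estimated by limma 3.58.1 (R 4.3.3), with a trend in the prior variance, with two-sided tests and a Benjamini-Hochberg adjustment across the genes of each of 19 contrasts (threshold 0.05). For rescaling, the ratio of each gene to its geometric mean was formed over 14786 genes, and each library's median ratio became its divisor (0.689 to 1.47). It assumes that the median gene does not differ. The fit was tested on simulated data with the W/W vehicle means in all libraries and the spread pooled within the 9 groups (16638 genes). Changes were set in the F/F vehicle libraries, in genes above 5 TPM only, with no shift of the median gene. The fit recovered 91% of 100 genes changed by 1 on the log2 scale and 100% of 100 changed by 2, with 4.5% false calls. These rates do not cover genes near 1 TPM or the median shift seen in the real data. Depth was fitted from low TPM values and M21 exon lengths, and 93.4% to 95.2% of values under 20 reads then lay within 0.1 of a whole number, where chance gives 20%. The labels do not state that each sample is a separate animal, and p-values measure the spread between these samples.

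The 8 genes, the 5 pathway lists and the 7 marker lists were chosen with earlier results of these data known. Named genes are the 8, the 2 genes closest to each by Pearson's r, and from each list the up to 3 largest rises and 3 largest falls in F/F against W/W on vehicle that were called on both scales and whose higher group averaged 5 TPM or more. Stard4 is in 2 lists. Alternatives were the pseudocount, the filter, rescaling, a replicate block, fits on the compared libraries and leaving out each library. Further genes of the pathway are not reported here.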

Additional observations from a re-analysis of the deposited data

Results flagged for a closer look

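Single livers stood far from the rest of their group for 3 of the 8 genes. Mylip in W/W chow replicate 3 was the lowest of its 4, at 3.53 TPM against 5.74 to 5.94 TPM. Mylip in W/F chow replicate 2 was the highest of its 4, at 6.78 TPM against 4.50 to 4.70 TPM. Npc2 in W/W T0901317 replicate 2 was the highest of its 4, at 81.6 TPM against 62.3 to 65.4 TPM. Npc2 in W/F T0901317 replicate 2 was the highest of its 4, at 89.005 TPM against 40.04 to 45.3 TPM. Soat1 in W/F T0901317 replicate 2 was the highest of its 4, at 4.54 TPM against 0.750 to 1.11 TPM. Soat1 in F/F T0901317 replicate 3 was the lowest of its 4, at 5.61 TPM against 7.73 to 8.10 TPM. These are 6 of 72 groups of 4 examined, and chance alone sets such a library apart in about 1 of 20 groups. The W/F liver given T0901317 that stood apart in Npc2 also stood apart in Soat1, and it had the highest macrophage marker sum of its group, 1609.6 TPM. Its sums were also the group's highest for stellate cell (286.8 TPM), bile duct (278.1), neutrophil (19.1) and T and B cell (9.80) markers. The endothelial sum was highest at 94.2 TPM, against at most 91.2 TPM, and the hepatocyte sum was lowest, at 41761 TPM. The part of this liver in these values was not tested beyond the results without it given above.

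The response to diet or to T0901317 differed between genotypes by the test of the difference itself (limma, Benjamini-Hochberg adjusted p under 0.05, deposited values). Each W/F or F/F response is set against the same W/W livers. For the T0901317 response of W/F minus W/W, the log2 differences were Mylip -1.08, Vldlr -1.05, Npc1 -0.98, Npc2 -2.23, Soat1 -2.82 and Soat2 -1.03. For the T0901317 response of F/F minus W/W, the log2 differences were Npc2 -1.47 and Soat1 -1.34. For the diet response of W/F minus W/W, the log2 differences were Mylip 1.21, Npc1 0.68, Npc2 2.12, Soat1 3.04 and Soat2 0.77. For the diet response of F/F minus W/W, the log2 differences were Mylip 0.86, Scarb1 -0.48, Npc1 0.70, Npc2 1.83, Soat1 1.96 and Soat2 0.57. After rescaling, those of Soat1 and Npc2 were called with the same direction in all 4 of these comparisons.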

How the results depend on the processing

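Over 103 combinations of gene and comparison that were called under at least 1 setting, 102 kept direction and call with a pseudocount of 0.1, 93 with no filter, 52 after rescaling and 97 with the replicate block. Of 93 that could be computed at 5 TPM or more, 91 kept both, and of 97 for comparisons fitted on their own libraries, 89. Rescaling turned 19 directions, and by construction it removes the median shift from each comparison. The rescaled log2 difference was Lrp1 -0.33, Scarb1 -0.62 and Soat2 -0.13 in W/F against W/W on vehicle, Lrp1 -0.40, Scarb1 -0.84, Npc1 -0.13 and Soat2 -0.50 in F/F against W/W on vehicle, Scarb1 -0.22, Npc1 -0.26 and Soat2 -0.46 in F/F against W/W on T0901317, Lrp1 -0.33 and Scarb1 -0.22 in F/F against W/F on T0901317, Lrp1 -0.49 for the diet in W/F, Lrp1 0.18, Scarb1 0.39 and Soat2 0.19 for T0901317 against vehicle in W/F, Scarb1 0.62 for the T0901317 response of W/F minus W/W, Lrp1 -0.25 and Scarb1 -0.37 for the diet response of W/F minus W/W. The number of the 8 genes called changed from 4 to 2 after rescaling and with no filter in F/F against W/W on chow. It changed from 1 to 3 after rescaling, 0 with no filter and 2 with the replicate block in W/F against W/W on T0901317. For T0901317 against vehicle it changed from 6 to 3 in W/F and from 2 to 5 in F/F after rescaling, and to 4 in F/F with the replicate block. For the diet response of F/F minus W/W it changed from 6 to 3 after rescaling. In F/F against W/F on vehicle it was 1 at 5 TPM or more, with the replicate block and on the compared libraries alone, Npc2 each time. The cause was not tested. Leaving out 1 library gave 2 to 4 called in F/F against W/W on chow, 0 to 1 in F/F against W/F on vehicle, 0 to 2 in W/F against W/W on T0901317, 1 to 3 for the diet in W/W and 0 to 4 for T0901317 in W/W. Uncalled differences near 0 changed sign, with ranges of Scarb1 -0.12 to 0.0634 for the diet in F/F, Scarb1 -0.0757 to 0.0542 in F/F against W/W on vehicle, Lrp1 -0.0657 to 0.13 for the diet in W/F, Scarb1 -0.0980 to 0.0380 for the T0901317 response of W/F minus W/W, Scarb1 -0.0492 to 0.0807 in W/F against W/W on vehicle and Soat2 -0.0122 to 0.14 in F/F against W/W on T0901317. Of the 74 calls on deposited values, 56 held in each omission, and 43 of the 74 held after rescaling in the same direction. Under both, 38 of the 74 held, Soat1 and Npc2 making up 26 of these. Such counts were not made over all genes, of which up to 76.5% were called in a single comparison as deposited. Residuals of same-numbered libraries correlated at -0.174 to 0.297 (median 0.0131, 144 pairs). Those of libraries with different numbers correlated at -0.319 to 0.390 (median -0.0064, 432 pairs). The correlation was above 0.1 in 12.5% and 8.80% of these pairs. Whether replicate numbers mark a shared effect was not tested, and the block result is only given here. Depth limits Vldlr, with as few as 7 reads.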

Other observations

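The RNA levels of the ligase and of its low-abundance target receptor can be set side by side within each library. The data hold no protein levels, so the ratio is one of RNA in whole liver only. Mylip stood at 8.71 to 37.1 times the Vldlr level in W/W livers on chow, 10.5 to 39.7 on vehicle and 6.86 to 15.4 on T0901317. In W/F livers the ratio was 4.35 to 30.6, 14.8 to 35.6 and 19.1 to 52.2, and in F/F livers 8.42 to 18.1, 12.8 to 16.8 and 17.5 to 31.7. On T0901317 all 4 W/F and all 4 F/F livers were above the 4 W/W livers in this ratio, and on chow and on vehicle the genotypes overlapped. Vldlr stood at 0.000820 to 0.00702 of the Lrp1 level in W/W livers on chow and 0.00910 to 0.0238 on T0901317, so Lrp1 was the far more abundant receptor RNA of the pair in these livers. The Vldlr values rest on few reads and their ratios spread widely within a group.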
